A study of Mus musculus with 2 samples.

Results

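Cholesterol and fatty acid synthesis was followed through 31 mouse genes, taken by symbol from a written list of the pathway's enzymes and regulators. All 31 were found among the 43346 Ensembl genes of the deposited tables. They comprise 7 genes of the steps from acetyl-CoA to squalene, 10 of the steps from squalene to cholesterol, 5 regulators of the pathway, 8 genes of acetyl-CoA supply and fatty acid synthesis, and 1 sterol carrier. The list does not hold every enzyme of these steps.

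Polyadenylated RNA was sequenced as paired ends from G1E-ER4, an immortalised mouse erythroid cell line. Its parent line, G1E, has no functional GATA1, the master regulator of red cell development, and G1E-ER4 adds back GATA1 joined to an estrogen receptor domain. Estradiol switches on this fusion and sets off maturation. The single group received 10 nM 17beta-estradiol over 14 h and has 2 libraries, numbered by the labels as biological replicates 1 and 2. Both share 1 biosample record, so part of their spread may be technical, and both come from 1 line. No untreated or earlier cells were analysed here. All values are therefore levels at 14 h, and differences are between replicate 1 and replicate 2 of 1 condition.

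Expected counts, the estimated number of read pairs per gene, came to 38395479 for replicate 1 and 60097379 for replicate 2. A count of 0 allows up to 3 counts, which is 0.0781 counts scaled to a library of 1000000 (CPM) in replicate 1 and 0.0499 CPM in replicate 2, for counting error only. The erythroid label was checked on 8 markers, of which 8 reached 1 TPM in both libraries, including Gata1 with 1132.26 TPM in replicate 1 and 2655.88 TPM in replicate 2; these reads do not separate the fusion from the gene's own locus. Cells in which lipid synthesis is best known left little RNA: 0 of 7 hepatocyte markers and 0 of 7 adipocyte markers reached 1 TPM in both libraries, and the defining genes Alb and Adipoq had 0 counts in both. Of 6 macrophage markers only Cd68 reached 1 TPM in both libraries, at 1.08 TPM in replicate 1 and 1.2 TPM in replicate 2, and 0 of 6 fibroblast markers did.

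Cells make cholesterol by condensing acetyl-CoA to HMG-CoA, reducing it to mevalonate, building isoprenoid units into squalene, and closing squalene into lanosterol, which is trimmed to cholesterol. Fatty acids start from the same acetyl-CoA, which ACLY and ACSS2 supply, acetyl-CoA carboxylase activates to malonyl-CoA and fatty acid synthase extends to palmitate. SREBP transcription factors control both branches: SCAP carries them from the endoplasmic reticulum to the Golgi when sterols are low, INSIG proteins hold SCAP back when sterols are high, and the cleaved factors bind sterol response elements, often beside CCAAT boxes bound by NF-Y and GC boxes bound by SP1. The red cell membrane is rich in cholesterol, and immature red cells still make lipids.

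Promoters were read to show the control sequences of the members on which the results turn. Hmgcs1 is shown as the member whose window holds the sterol response element letters, Srebf2 as the member with the highest level, Fasn as the enzyme with the highest mean level, and Insig1 with Insig2 as a pair of regulators of which 1 was near the detection limit. Each run is the 250 bases before a RefSeq transcription start (GRCm38.p6), 5′ to 3′ on the gene's strand. This start lay 95 bases before that of the most abundant coding transcript for Hmgcs1, and at it for Fasn. It lay 88 bases after it for Srebf2, 49 for Insig1 and 87 for Insig2. In those windows the last bases shown lie within that transcript, with the Srebf2 GC boxes 79, 52 and 34 bases before the RefSeq start. Capitals mark every match, on either strand, to the sterol response element TCACNCCAC, the CCAAT box (CCAAT), the GC box (GGGCGG), the E-box (CACGTG) and the GATA motif (GATAA).
Hmgcs1, chr13:119690101-119690350, plus strand: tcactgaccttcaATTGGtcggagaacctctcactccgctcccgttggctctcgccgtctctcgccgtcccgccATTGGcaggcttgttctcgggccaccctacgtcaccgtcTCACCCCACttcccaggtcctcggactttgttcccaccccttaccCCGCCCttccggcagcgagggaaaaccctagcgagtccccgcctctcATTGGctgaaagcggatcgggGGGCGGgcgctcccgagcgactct
Srebf2, chr15:82147019-82147268, plus strand: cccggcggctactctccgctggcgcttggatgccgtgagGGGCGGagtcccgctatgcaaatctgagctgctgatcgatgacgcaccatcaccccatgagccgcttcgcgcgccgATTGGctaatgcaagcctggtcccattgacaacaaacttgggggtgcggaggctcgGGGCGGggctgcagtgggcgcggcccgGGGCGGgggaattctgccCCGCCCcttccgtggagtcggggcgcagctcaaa
Fasn, chr11:120824548-120824797, minus strand: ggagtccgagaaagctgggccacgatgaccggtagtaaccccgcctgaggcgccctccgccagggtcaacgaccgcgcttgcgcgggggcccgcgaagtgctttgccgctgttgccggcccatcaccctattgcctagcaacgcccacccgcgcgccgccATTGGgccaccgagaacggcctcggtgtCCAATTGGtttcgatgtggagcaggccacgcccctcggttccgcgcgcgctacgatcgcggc
Insig1, chr5:28071162-28071411, plus strand: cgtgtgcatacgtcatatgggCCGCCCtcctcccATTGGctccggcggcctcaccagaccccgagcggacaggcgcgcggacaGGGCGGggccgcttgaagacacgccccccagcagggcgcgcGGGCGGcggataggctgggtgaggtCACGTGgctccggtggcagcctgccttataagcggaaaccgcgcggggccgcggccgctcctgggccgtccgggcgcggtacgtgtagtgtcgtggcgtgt
Insig2, chr1:121327679-121327928, minus strand: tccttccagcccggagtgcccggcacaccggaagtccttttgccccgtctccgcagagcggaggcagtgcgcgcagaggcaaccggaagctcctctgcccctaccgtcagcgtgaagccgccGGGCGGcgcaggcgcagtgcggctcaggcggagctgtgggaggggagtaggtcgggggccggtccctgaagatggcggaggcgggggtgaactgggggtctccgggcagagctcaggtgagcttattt

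The Hmgcs1 window held 1 match to the sterol response element, beginning 137 bases before the start. It also held 3 CCAAT matches on the minus strand, 237, 176 and 45 bases before the start, and 2 GC boxes, 92 and 24 bases before it. Srebf2 held 1 CCAAT match, 135 bases before the start, and 4 GC boxes. Fasn held 3 CCAAT matches and no GC box; those beginning 62 and 59 bases before the start overlap, on opposite strands. Insig1 held 3 GC boxes, 1 CCAAT match and 1 E-box, and the Insig2 window, 1 of 3 that RefSeq lists for this gene and the nearest to the start of its most abundant transcript, held 1 GC box.

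RefSeq promoters were matched for 25 of the 31 genes and gave 33 windows; Fdps, Fdft1, Sqle, Scd1, Scd2 and Stard4 were not in the table. A CCAAT match was present in 22 of the 33 windows (66.7%), against 33.8% of all 32851 promoters. GC boxes were in 23 of 33 (69.7%), against 32.7% of all promoters, and the E-box in 5 of 33 (15.2%), against 6.02%. The sterol response element letters were in 1 of 33 windows, against 1.05% of all promoters, and GATAA in 1 of 33, in another Insig2 window, against 22.6%. The motifs were chosen after expression values had been seen, a match is a description of letters, and the absence of a match says only that those letters are not in that window. The background is all promoters, and none matched by expression or GC content was read. Whether these shares are particular to the pathway was not tested.

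The first question was which steps of the pathway these cells expressed. Of the 31 genes, 25 reached 1 TPM (transcript abundance divided by length and scaled to a sum of 1000000) in both libraries, against 37.6% of 21474 protein-coding genes. Levels of 50 TPM or more in both libraries were reached by 6, against 9.08% of protein-coding genes: the regulators Srebf2, Srebf1 and Scap, fatty acid synthase Fasn, and the mevalonate enzymes Mvk and Mvd. Below 0.1 TPM in both libraries stood 2, Insig1 and Scd1, against 52.3% of protein-coding genes, and the other 4 (Hsd17b7, Sc5d, Acacb and Elovl6) lay between. The median of all 31 genes stood at 14.96 TPM (replicate 1) and 17.51 TPM (replicate 2). Over all protein-coding genes the medians were 0.03 and 0.02 TPM. Protein-coding genes with at least 1 TPM in both libraries had medians of 19.35 and 19.68 TPM. That set leaves out genes that missed 1 TPM in a library, while the 31 keep Insig1, Scd1, Hsd17b7, Sc5d, Acacb and Elovl6. Its medians therefore cannot be compared directly with those of the 31. The 31 genes together took 0.409% of the counts in replicate 1 and 0.431% in replicate 2. In bulk RNA, fewer cells that express a gene and less RNA per cell cannot be told apart.

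**Figure D1:**
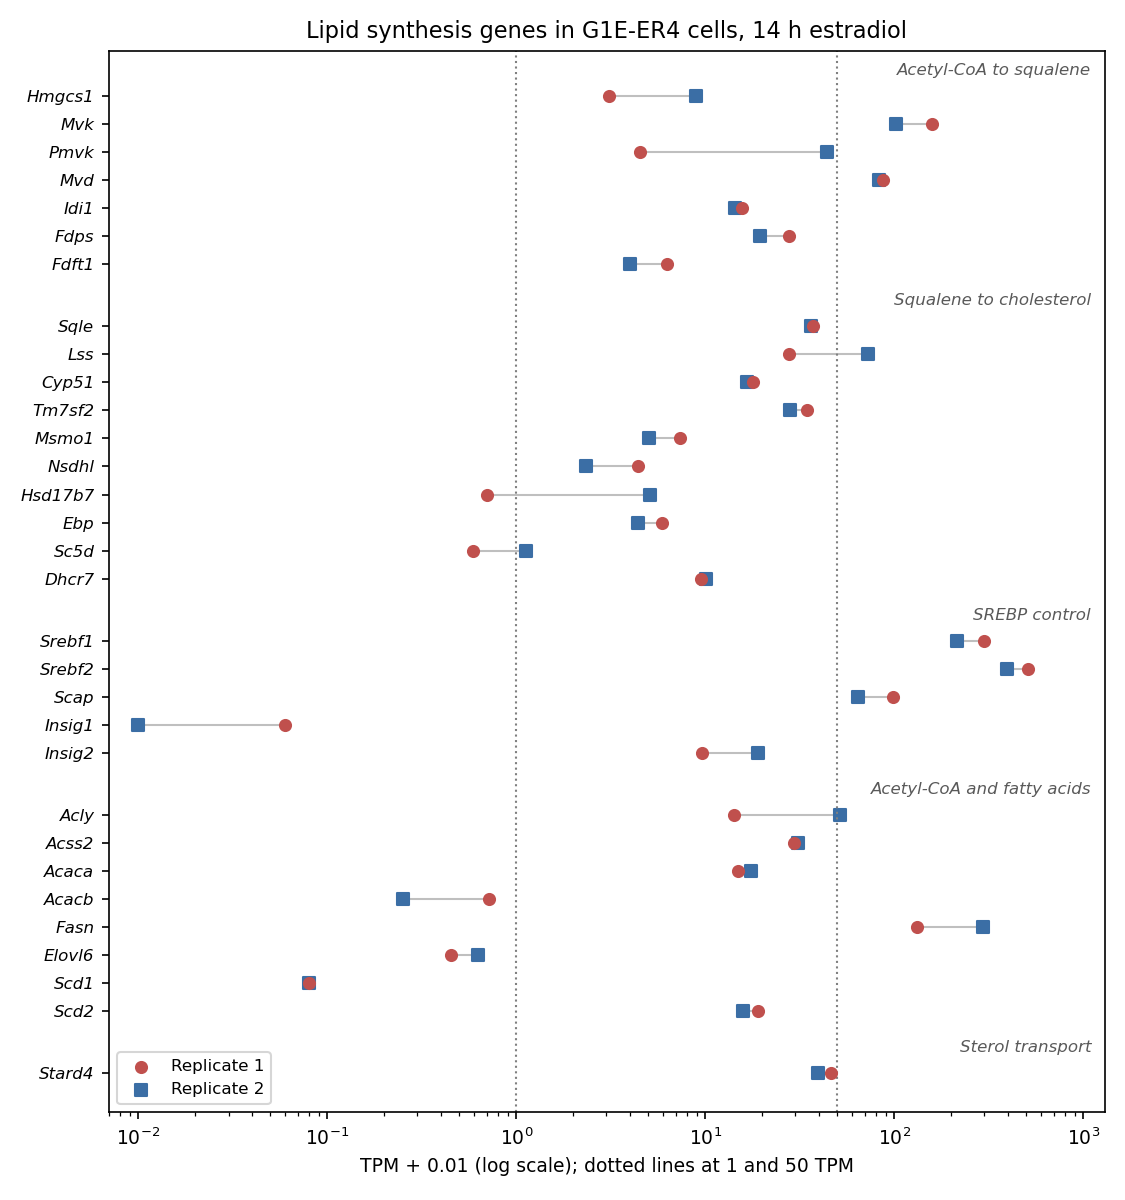
Level of each of the 31 genes in replicate 1 (circles) and replicate 2 (squares), as TPM + 0.01 on a log axis, grouped by role; grey lines join the libraries and dotted lines stand at 1 and 50 TPM. Srebf2 lies furthest right at 508.65 and 395.61 TPM, Insig1 and Scd1 lie furthest left, and Pmvk has the widest gap among the expressed genes.

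All 7 genes from acetyl-CoA to squalene reached 1 TPM in both libraries. They ranged from 3.08 to 158.81 TPM in replicate 1 and from 4 to 101.86 TPM in replicate 2. Mevalonate kinase, Mvk (chr5:114444269-114460591), which phosphorylates mevalonate, was the highest of them, with 158.81 TPM in replicate 1 and 101.86 TPM in replicate 2 (130 ± 40.3, SD, n = 2). Mvd, the decarboxylase that yields the first isoprenoid unit, had 87.04 TPM in replicate 1 and 83.21 TPM in replicate 2 (85.1 ± 2.71). These enzymes of the kinase and decarboxylase steps stood above the other 5 genes of the group in both libraries.

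Between those enzymes in the pathway stands phosphomevalonate kinase, Pmvk (chr3:89454541-89469013), and its level was not stable. It had 4.49 TPM in replicate 1, from 143 counts, and 44.23 TPM in replicate 2, from 2306 counts. Pmvk thus stood below Idi1 and Fdps in replicate 1 and above both in replicate 2. Hmgcs1 (chr13:119690379-119708260), the synthase that makes HMG-CoA and whose window holds the sterol response element letters, was also lower in replicate 1, with 3.08 TPM, than in replicate 2, with 8.89 TPM.

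The isoprenoid steps that follow were expressed at middling levels. Idi1, which isomerises the isoprenoid unit, had 15.66 TPM in replicate 1 and 14.38 TPM in replicate 2. Farnesyl diphosphate synthase, Fdps, had 27.61 and 19.46 TPM in replicates 1 and 2. Squalene synthase, Fdft1, the first step committed to sterols, was lower, with 6.28 TPM in replicate 1 and 4 TPM in replicate 2, and overlaps Ctsb (22.34 and 21.33 TPM) on the opposite strand. Counts of Idi1 and Fdps were not whole numbers to within 0.005, because reads that match several genes were divided among them, so these levels carry that uncertainty.

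From squalene to cholesterol, 8 of 10 genes reached 1 TPM in both libraries and none reached 50 TPM in both. Their median stood at 8.38 TPM in replicate 1 and 7.62 TPM in replicate 2. Squalene epoxidase, Sqle, the first oxygen-dependent step, had 37.17 TPM in replicate 1 and 36.23 TPM in replicate 2 (36.7 ± 0.665), 1 of the closest agreements among the 31. Lanosterol synthase, Lss, which closes the rings, had 27.77 TPM in replicate 1 and 72.18 TPM in replicate 2. Cyp51, the lanosterol demethylase, had 17.91 and 16.6 TPM in replicates 1 and 2, and overlaps Akap9 (65.67 and 43.63 TPM) on the opposite strand.

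Among the trimming steps, Tm7sf2, a sterol reductase, had 34.69 TPM in replicate 1 and 28.14 TPM in replicate 2, but it overlaps Vps51 on the same strand (74.45 and 41.44 TPM) and its counts were not whole. The methyl groups of the sterol are removed by Msmo1, Nsdhl and Hsd17b7. Msmo1 had 7.32 TPM in replicate 1 and 5 TPM in replicate 2, and Nsdhl 4.39 and 2.34 TPM. Hsd17b7, the reductase of this group, had 0.69 TPM in replicate 1, from 64 counts, and 5.12 TPM in replicate 2, from 416 counts, so it reached 1 TPM in replicate 2 only.

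The isomerase Ebp had 5.87 TPM in replicate 1 and 4.41 TPM in replicate 2. Sc5d, the desaturase after it, was the lowest sterol enzyme by mean, with 0.58 TPM in replicate 1 (37 counts, 0.964 CPM, 95% interval 0.679 to 1.33) and 1.12 TPM in replicate 2 (121 counts, 2.01 CPM, 1.67 to 2.41). These exact Poisson intervals do not overlap and cover counting error only. Dhcr7, a reductase of the last steps, had 9.43 and 10.12 TPM in replicates 1 and 2.

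Srebf2 had the highest TPM of the 31 genes in both libraries. Srebf2 (chr15:82147181-82205379), which encodes SREBP2, the factor best known for the sterol genes, had 508.65 TPM in replicate 1 and 395.61 TPM in replicate 2 (452 ± 79.9, n = 2). That placed it at percentile 98.7 of protein-coding genes in replicate 1 and 98.6 in replicate 2. Srebf1 (chr11:60199089-60222581), which encodes SREBP1, best known for the fatty acid genes, had 297.77 and 215.36 TPM in replicates 1 and 2, at percentiles 97.7 and 97.2, of which 138.4 and 117.26 TPM lay on protein-coding transcripts. Its mean TPM ranked next to Srebf2, but in replicate 2 Fasn stood above it, and on protein-coding transcripts Mvk stood above it in the mean. It lies opposite Rai1 (194.07 and 181.07 TPM) on the other strand, and whether reads were counted by strand is not given in the sources used here, so reads of the shared stretch cannot be told apart, here or for Fdft1 and Cyp51. Scap, the escort of the SREBPs, had 98.3 TPM in replicate 1 and 64.37 TPM in replicate 2.

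The INSIG proteins, which retain SCAP, were unequal at the RNA level. Insig2 (chr1:121304353-121332589) had 9.63 TPM in replicate 1, from 170 counts, and 19.07 TPM in replicate 2, from 441 counts. Insig1 (chr5:28071363-28078662), itself a well-known SREBP target, had 0.05 TPM in replicate 1, from 4 counts, and 0 counts in replicate 2. The 4 counts are 0.104 CPM with an exact interval of 0.0284 to 0.267 CPM, and 0 counts allow up to 0.0499 CPM in replicate 2. Insig1 was thus near or below detection in both libraries while Srebf2 and Scap were among the highest members.

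On the fatty acid branch 5 of 8 genes reached 1 TPM in both libraries, with a median of 14.5 TPM in replicate 1 and 16.7 TPM in replicate 2. Fasn (chr11:120805846-120824547), which makes palmitate, was the highest enzyme of all by mean, with 132.5 TPM in replicate 1 from 15745 counts and 295.57 TPM in replicate 2 from 47639 counts (214 ± 115, n = 2). On protein-coding transcripts it had 47.35 TPM in replicate 1 and 76.03 TPM in replicate 2, below Mvk with 158.69 and 101.68 TPM. Acly, the citrate lyase that supplies cytosolic acetyl-CoA, had 14.12 TPM in replicate 1 and 51.69 TPM in replicate 2. Acss2, which makes acetyl-CoA from acetate, was steadier, with 29.4 and 31.06 TPM in replicates 1 and 2. Acss2 overlaps Gss (14.46 and 13.39 TPM) on the opposite strand.

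Within each isoenzyme pair of this branch 1 gene carried nearly all the RNA. Acaca, the cytosolic acetyl-CoA carboxylase, had 14.96 TPM in replicate 1 and 17.51 TPM in replicate 2, while Acacb, the form tied to the mitochondrial surface, had 0.71 and 0.24 TPM from 29 and 57 counts. Scd2, a fatty acid desaturase, had 19.04 TPM in replicate 1 and 15.86 TPM in replicate 2, while Scd1, the form that dominates in liver and fat, had 0.07 TPM in both, from 9.5 and 17.01 counts. Counts of both Scd genes were not whole, as reads that match several genes were divided. Elovl6, which lengthens palmitate, was low, with 0.44 TPM in replicate 1 and 0.62 TPM in replicate 2. Stard4, a carrier that moves cholesterol between membranes, had 46.38 and 39.35 TPM in replicates 1 and 2, most of it on a retained intron transcript.

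The design also allows the ratio between genes that share or neighbour a step to be read within each library, where depth cancels. Of 14 pairs, 10 gave the same direction in both libraries with a mean log2 ratio of TPM + 0.1 over 2 times the range between libraries. Srebf2 exceeded Srebf1 by a log2 ratio of 0.77 in replicate 1 and 0.88 in replicate 2 (mean 0.82, SD 0.07); by counts, which are not divided by length, Srebf2 had 3.87 and 3.73 times the reads of Srebf1. On transcripts annotated as protein coding the mean was 1.82. Insig1 lay below Insig2 by log2 ratios of -6.02 in replicate 1 and -7.58 in replicate 2, from 4 against 170 and 0 against 441 counts. By CPM these log2 ratios were -4.47 and -6.22. Most Insig2 TPM lay on Insig2-212, a coding model of 478 bases. Reads of the INSIG genes were thus almost all placed on Insig2.

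The carboxylase and desaturase pairs were as one-sided. Acaca exceeded Acacb by log2 ratios of 4.22 in replicate 1 and 5.69 in replicate 2, a count ratio of 110 (95% interval 76.1 to 164) and 68.5 (52.7 to 90.6). Scd2 exceeded Scd1 by 6.81 and 6.55 on the log2 scale, and its counts were 308 and 269 times those of Scd1. Fasn stood above Acaca, the step before it, by log2 ratios of 3.14 in replicate 1 and 4.07 in replicate 2; on protein-coding transcripts the mean ratio was 1.88 in place of 3.60. Elovl6 stood below Elovl5, an elongase of polyunsaturated fatty acids, by -3.43 in replicate 1 and -2.80 in replicate 2, or a mean of -1.53 by CPM.

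Other pairs of the mevalonate and sterol branches were unequal as well. Idi2 had 0 counts in replicate 1, where Idi1 had at least 451 times as many against a floor of 3 counts, and 1 count in replicate 2 against 2223 for Idi1 (ratio interval 399 to 87843). Fdps stood above Fdft1 by log2 ratios of 2.12 in replicate 1 and 2.25 in replicate 2, or a mean of 0.89 by CPM. Tm7sf2 stood below Lbr, the other reductase able to carry out its step, by -1.58 in replicate 1 and -1.47 in replicate 2, or a mean of -2.70 by CPM. Its counts were 0.219 times those of Lbr in replicate 1 and 0.107 times in replicate 2.

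The remaining 4 pairs did not exceed the spread. Acly over Acss2, the citrate and acetate routes to acetyl-CoA, was -1.05 in replicate 1 and 0.73 in replicate 2. On protein-coding transcripts the ratio of Acly over Acss2 was 1.07 in replicate 1 and 2.37 in replicate 2, and by counts 1.03 and 3.32 times. Cyp51 over Lss was -0.63 in replicate 1 and -2.11 in replicate 2, but its direction turned elsewhere: on protein-coding transcripts it was 1.13 and -0.01, and by CPM 0.49 and -0.53. Srebf2 over Nr1h2, which encodes the sterol sensor LXR beta, was 0.16 in replicate 1 and 0.08 in replicate 2, so both regulators stood at similar TPM, although by CPM the mean ratio was 1.84 and passed. Acat2 over Acat1, the cytosolic and mitochondrial thiolases, was 1.12 in replicate 1 and -1.36 in replicate 2; on protein-coding transcripts its mean was 3.29 and passed.

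How far the libraries differed was tested for every gene with at least 10 counts in sum, by an exact two-sided binomial test on counts scaled by the TMM method of edgeR, with genes called where the adjusted p was under 0.05 and the fold 1.5 or more. The test compares 2 libraries and covers counting error only. Of 30 members tested, 10 were called, 33.3%, against 41.5% of all 11230 genes tested. Higher in replicate 1 were 2 members (18.7% of all genes were called in that direction) and higher in replicate 2 were 8 (22.8% of all genes). The share of members called was thus near that of the whole table and is no result about these genes. The median log2 ratio of replicate 1 over replicate 2 was 0.01 for the members, against -0.01 for all genes. Insig1, with 4 counts in all, was not tested.

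The largest difference was that of Pmvk, with a log2 ratio of replicate 1 over replicate 2 of -3.25 (95% interval -3.51 to -3.01), so that it was 9.50-fold higher in replicate 2. Hsd17b7 was 3.82-fold, Acly 3.74-fold and Hmgcs1 3.04-fold higher in replicate 2. Lss at 1.99-fold, Sc5d at 1.92-fold (exact test, adjusted p = 0.000453), Fasn at 1.79-fold and Insig2 at 1.53-fold (exact test, adjusted p = 2.6e-06) were also higher in replicate 2. Of the regulators tested only Insig2 was called. Srebf1, Srebf2 and Scap had log2 ratios of 0.23, 0.29 and 0.54, toward replicate 1.

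In the other direction Nsdhl was 1.78-fold higher in replicate 1, with 270 counts there and 256 in the deeper replicate 2 (log2 ratio 0.84, 95% interval 0.58 to 1.09). Mvk was 1.58-fold higher in replicate 1, a call that was lost with libraries scaled to total counts (log2 ratio 0.55) and with a trend on GC content removed (0.49). The call of Insig2 was also lost once that trend was removed, at -0.49 in place of -0.61. Among members not called, Mvd (-0.01), Sqle (-0.03), Cyp51 (0.03) and Idi1 (0.04) had log2 ratios nearest 0 apart from Scd1, whose 27 rounded counts give a wide interval of -1.30 to 1.20.

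The 8 erythroid markers differed between the same libraries: 7 were called, against 41.5% of all genes, and 6 of them were higher in replicate 2, against 22.8% of all genes. Their levels summed to 22994 TPM in replicate 1 and to 74353 TPM in replicate 2, most of it from the globin genes Hbb-bs, with 13158 and 49652 TPM, and Hba-a1, with 7118 and 21029 TPM. Klf1 was the marker higher in replicate 1, at 1422.06 against 754.29 TPM. Their part in the difference of the lipid genes was not tested.

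**Figure D2:**
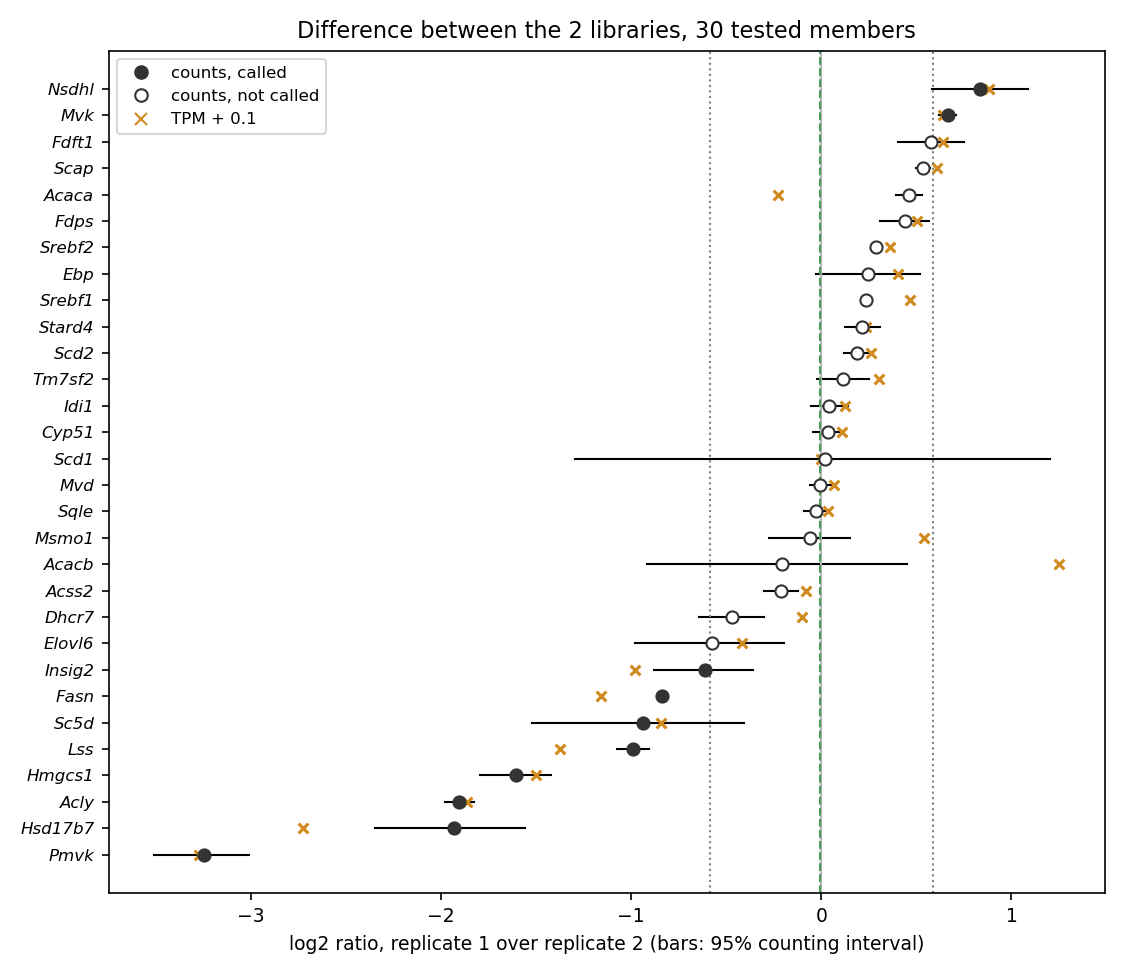
Log2 ratio of replicate 1 over replicate 2 for the 30 tested members from scaled counts, filled where called and open where not, with 95% counting intervals as bars and the ratio of TPM + 0.1 as crosses; dotted lines mark 1.5-fold and the dashed line the median of all genes. Nsdhl and Mvk are called to the right, 8 members from Insig2 down to Pmvk are called to the left, and for Acaca, Acacb and Msmo1 the cross lies well to the other side of 0 from the count ratio.

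TPM depends on which transcript the reads were placed on, and for some members that moved the level. On protein-coding transcripts 20 members had over 90% of their TPM in both libraries, 10 had less in at least 1 library, and Insig1 could not be placed in replicate 2. For Lss, Acss2, Fasn and Stard4 the share was under 50% in both. Fasn-201, the full coding message of 9587 bases and 43 exons, held 35.7% of Fasn TPM in replicate 1 and 25.7% in replicate 2, although it held 13608 and 39005 counts. The rest went to short transcripts annotated as retained introns: Fasn-203, of 971 bases, with 64.3% and 41.5%, and Fasn-202, of 762 bases, with 0 and 32.8%. On coding transcripts alone Fasn thus missed 50 TPM in replicate 1, and 5 members in place of 6 reached 50 TPM in both libraries.

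Lss showed the same kind of shift between short transcripts. Its coding message Lss-201 held 29.3% of TPM in replicate 1 and 23.2% in replicate 2, or 8.13 and 16.77 TPM. Lss-205, a retained intron transcript of 425 bases, held 51.6% in replicate 1 and 0.24% in replicate 2, while Lss-202, a processed transcript of 352 bases, held 10.7% and 73.8%. Stard4 lay almost wholly on Stard4-204, a retained intron transcript of 979 bases, with 88.9% in replicate 1 and 92.6% in replicate 2. On coding transcripts Stard4 had 5.14 TPM in replicate 1 and 2.93 TPM in replicate 2.

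Further members divided their TPM among several transcripts. At least 10% of TPM on each of 2 or more transcripts, in replicate 1 and in replicate 2 alike, was found for 9 members: Lss, Tm7sf2, Ebp, Srebf1, Insig2, Acly, Acss2, Acaca and Fasn. Srebf1 was split between a coding transcript that starts at base 60207188 of chromosome 11, Srebf1-203, with 30.8% in replicate 1 and 32.5% in replicate 2, another that starts upstream at base 60220604, Srebf1-201, with 13.1% and 18.2%, and a processed transcript of 686 bases, Srebf1-208, with 35.2% and 28.9%. Srebf1-203 and Srebf1-201 had 10941 and 4946 counts in replicate 1, and 14862 and 8816 counts in replicate 2. The coding message with the upstream start was thus the lesser in both libraries.

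Short coding models took most of the TPM of Insig2: Insig2-212, of 478 bases, held 72.9% in replicate 1 and 78.9% in replicate 2, against 11.2% and 4.73% for the 2697-base Insig2-201. Acss2-205, annotated as a target of nonsense-mediated decay, held 77.4% of Acss2 in replicate 1 and 67.3% in replicate 2, against 18.5% and 13.7% for the coding Acss2-201. Acaca was divided between its 9026-base message Acaca-201, with 77.6% in replicate 1 and 43.5% in replicate 2, and the 431-base Acaca-206, with 18.9% and 44.2%, and its TPM and count ratios between the libraries had opposite signs. Acly was shared by the coding transcripts Acly-203, with 59.5% and 40.3%, and Acly-207, with 24.8% and 39.7%. Ebp lay on its coding message at 46.9% and 50.1% and on the retained intron transcript Ebp-204 at 41.8% and 27.8%, and Tm7sf2 on the coding Tm7sf2-214 at 36.2% and 49.99% and Tm7sf2-201 at 14.6% and 24.97%.

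**Figure D3:**
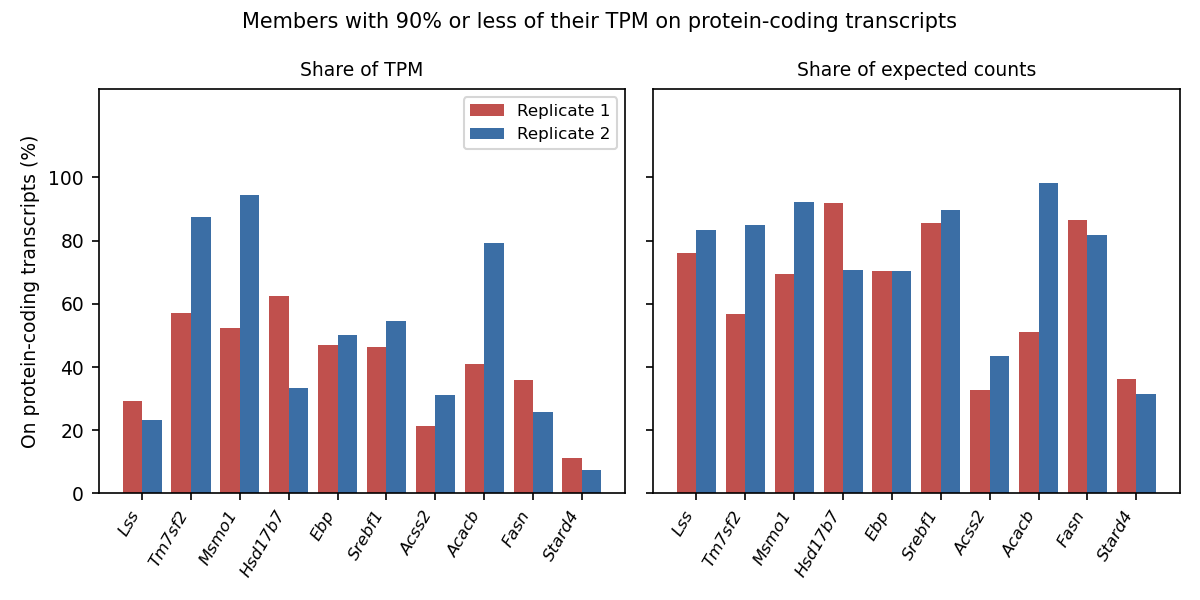
Share of TPM (left) and of expected counts (right) on transcripts annotated as protein coding, in percent, for the 10 members with 90% or less in at least 1 library; red bars are replicate 1 and blue bars replicate 2. Fasn, Lss and Srebf1 have most of their counts but a smaller share of their TPM on coding transcripts, and Stard4 and Acss2 have under 50% by either measure.

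Base composition varied with level among the members. GC content of the most abundant transcript ran from 41.9% (Idi1) to 63.3% (Srebf1), with a median of 50.9%. Across the 31 genes GC content and log2 mean TPM + 0.1 had a Pearson r of 0.53 and a Spearman rho of 0.59. These genes share both libraries and are not independent. Over 8072 protein-coding genes with at least 1 TPM in both libraries, rho between GC content and replicate 1 TPM was 0.39. The 31 include genes below 1 TPM and were read on the mean of both libraries, so the rho values cannot be compared directly. Srebf2, Srebf1, Scap, Fasn, Mvk and Mvd, the 6 high members, all lay above the median. Acacb, at 62.5% GC and 0.475 TPM by mean, did not follow. The transcript used is the one with the highest share of TPM, coding or not. For Acacb it was the 506-base retained intron transcript Acacb-203, with 4 counts in replicate 1 and 1 in replicate 2. For Srebf1 it was the 686-base processed transcript Srebf1-208, and for Fasn the retained intron transcript Fasn-203. For Lss, Stard4, Acss2 and Hsd17b7 it was also a transcript not annotated as protein coding. The part of GC content in these levels was not tested.

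**Figure D4:**
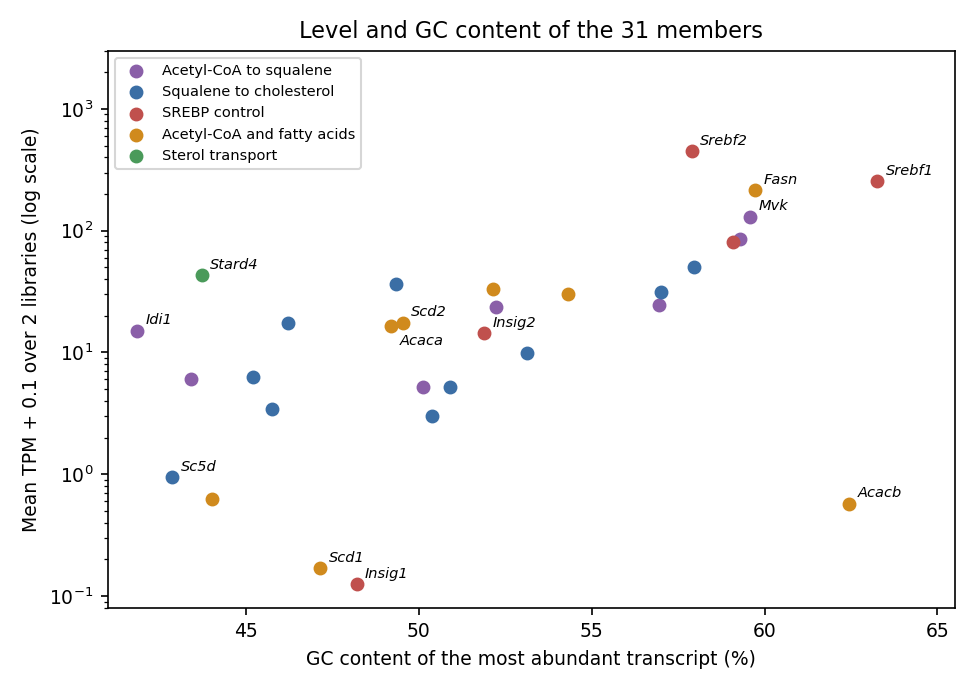
Mean TPM + 0.1 over the 2 libraries, on a log axis, against GC content of the most abundant transcript in percent, for the 31 members, coloured by role. The 6 members above 50 TPM by both libraries lie to the right, between Srebf2 and Srebf1, and Acacb lies alone at the lower right.

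The wider pathway was read from 73 related genes in 5 lists. Of these, 51 reached 1 TPM in both libraries, 12 reached 50 TPM and 15 were below 0.1 TPM in both. Of 58 tested between the libraries 19 were called, 32.8%, against 41.5% of all genes. Higher in replicate 1 were 4, against 18.7% of all genes, and higher in replicate 2 were 15, against 22.8%.

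RNA for proteins that process and partner the SREBPs was found throughout: all 11 of that list reached 1 TPM in both libraries and none reached 50 TPM in both. Messages of the proteases that release the factors in the Golgi were detected, Mbtps1 with 24.74 TPM in replicate 1 and 27.1 TPM in replicate 2, and Mbtps2 with 5.13 and 4.7 TPM. Nfyc and Nfya, subunits of the CCAAT-box factor NF-Y, had 30.26 and 39.4 TPM in replicate 1, and 73.52 and 28.99 TPM in replicate 2. In this list 4 of 11 genes tested were called, 36.4%, against 41.5% of all genes. Higher in replicate 1 was 1 and higher in replicate 2 were 3, against 18.7% and 22.8% of all genes. Mbtps1 and Mbtps2 were named after their values had been seen.

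Of 14 sterol and isoprenoid genes 11 were at 1 TPM or more in both libraries, and these 3 at 50 TPM or more: Cyb5r3, a cytochrome b5 reductase, with 136.49 TPM in replicate 1 and 173.11 TPM in replicate 2, Por, the reductase that serves CYP51 and squalene epoxidase, with 164.75 and 74.07 TPM, and the sterol reductase gene Lbr with 104.14 and 77.89 TPM. By counts Lbr was called 1.90-fold higher in replicate 2, opposite to the order of its TPM. Only 40.1% of Por TPM in replicate 1 lay on coding transcripts, against 88.4% in replicate 2. Of this list 2 genes, Idi2 among them, stood below 0.1 TPM in both libraries. In this list 4 of 12 genes tested were called, Lbr among them, 33.3%, against 41.5% of all genes. All 4 were higher in replicate 2, against 22.8% of all genes.

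Sterol sensing and handling was less complete, with 6 of 14 genes at 1 TPM or more in both libraries. The LXR receptor gene Nr1h2 had 454.55 TPM in replicate 1 and 375.44 TPM in replicate 2, and its paralogue Nr1h3 0.57 and 0.81 TPM. Among LXR targets, the sterol exporters Abca1 (16 and 40 counts) and Abcg1 (0 counts in both) were below 0.1 TPM, and Mylip had 0.06 TPM in replicate 1 and 0.1 TPM in replicate 2. Scarb1, the lipoprotein receptor for selective uptake, had 39.26 and 39.73 TPM and Npc2, a lysosomal sterol carrier, 13.15 TPM in replicate 1 and 49.73 TPM in replicate 2. Lipa, the lysosomal lipase, and Vldlr had 0 counts in both libraries, and of the cholesterol esterifying enzymes Soat2 had 22.38 and 22.3 TPM and Soat1 0.45 and 0 TPM. Nr1h3, Mylip, Soat1 and Soat2 were named after their values had been seen. In this list 2 of 10 genes tested were called, 20%, against 41.5% of all genes. Both were higher in replicate 2, against 22.8% of all genes.

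Of 20 related fatty acid genes 12 were at 1 TPM or more in both libraries, 6 of them at 50 TPM or more. At the top were the desaturases Fads2, with 129.08 TPM in replicate 1 and 163.48 TPM in replicate 2, and Fads1, with 133.51 and 97.19 TPM, and the elongase Elovl1, with 156.87 and 124.99 TPM. Below 0.1 TPM in both libraries were the elongases Elovl2, Elovl3, Elovl4 and Elovl7, the desaturase Scd3, the carbohydrate-responsive factor gene Mlxipl and the lipogenic Thrsp. In this list 3 of 13 genes tested were called, 23.1%, against 41.5% of all genes. Higher in replicate 1 was 1 and higher in replicate 2 were 2, against 18.7% and 22.8% of all genes.

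Lipid activation and storage genes were mostly present, with 11 of 14 at 1 TPM or more in both libraries. Agpat1, an acyltransferase of phospholipid and triglyceride synthesis, had 200.58 TPM in replicate 1 and 130.84 TPM in replicate 2, the lipid droplet coat gene Plin2 63.52 and 51.39 TPM, and the acyl-CoA synthetase Acsl5 40.9 and 31.71 TPM. Acsl6 and the triglyceride synthase gene Dgat2 were below 0.1 TPM in both. In this list 6 of 12 genes tested were called, 50%, against 41.5% of all genes. Higher in replicate 1 were 2 and higher in replicate 2 were 4, against 18.7% and 22.8% of all genes.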

How the data were processed

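Polyadenylated RNA of 1 group with 2 libraries was analysed from gene and transcript tables in mm10 that the authors deposited. Per the deposited notes the annotation is GENCODE M4, and the sources used here give no aligner, quantifier settings or use of strand. The deposited expected counts are estimated and need not be whole; the deposited TPM divides them by effective transcript length, the deposited FPKM also by fragments, and the deposited isoform percent divides each transcript's TPM by that of its gene. Names, transcript types and coordinates came from GENCODE M21 (GRCm38), promoters from RefSeq. The 26248 rows without a gene name (2 counts, 5.2e-06%, in replicate 1) and 97 spike-in rows were left out.

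Counts were rounded and tested between libraries by an exact binomial test (scipy 1.17.1; TMM of edgeR 4.0.16) with Benjamini-Hochberg adjustment over 11230 genes and 0.5 counts added to each library for folds. The script was tested on simulated data. Isoforms were described for members with a mean of at least 5 TPM. Named are all members, both genes of each pair, and of each related list the 3 highest by mean TPM and those below 0.1 TPM in both libraries; other names are said to be later choices, and some that this rule picks are not reported here. Members and lists were chosen with earlier results of these data known. Alternatives covered unit, thresholds, scaling, filters, GC content, pseudocount and replicates; TPM on protein-coding transcripts only was added after seeing the data.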

Additional observations from a re-analysis of the deposited data

How the results depend on the processing

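By CPM, not divided by length, 10 members in place of 6 were high and 0 in place of 2 were below 0.1. At 100 TPM, 5 in place of 12 related genes were high. With a 2-fold minimum 4 members were called in place of 10, 0 higher in replicate 1 and 4 higher in replicate 2, beside 21.6% of all genes; with no fold minimum 21 were called, 10 of them higher in replicate 1, beside 73.5% of all genes. With total counts 10 members were called, beside 41.5% of all genes, and 1 of them was higher in replicate 1. That scaling moved the median log2 ratio of all genes to -0.12. By the fold of TPM 4 members were higher in replicate 1. In the main setting 2 were, beside 18.7% of all genes. With the GC trend removed 9 members were called, 8 of them shared with the main setting. The share of all genes with that trend removed, and by direction under these alternatives, is not given here. At 20% per transcript 4 members in place of 9 had 2 or more transcripts. The mean log2 ratio of Acat2 over Acat1 was 3.29 on protein-coding transcripts only, in place of -0.12; that setting keeps 11.6% of Acat1 TPM in replicate 1 and 6.79% in replicate 2. Of the members' library ratios, 242 kept their side of the threshold, 17 passed it newly and 9 fell short under the alternatives run. Much of this was fixed in advance. Changed count filters, which leave every ratio as it was, gave 30 and 28 of the 242. Dropping the fold minimum, which can only add calls, gave 11 of the 17. The 2-fold minimum, which can only remove calls, gave 6 of the 9. No called ratio changed sign, but only the fold of TPM and the GC trend could have turned one. In levels 130 stayed within 1 SD, taken over the 2 libraries, and 56 moved. CPM gave 23 of the 56, FPKM 11 and TPM rescaled without globin genes 10, each a change of unit for all genes. Where libraries differ that SD is wide. Pmvk (4.49 and 44.23 TPM) stayed throughout, while Mvd (87.04 and 83.21 TPM) moved by FPKM and CPM. The tally is thus no measure of stability. The 130 include 30 from leaving out replicate 1 and 30 from leaving out replicate 2. Where 2 libraries differ, each always lies within 1 SD of their mean, so those say nothing about stability.

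Leaving out each replicate gave 25 to 27 members expressed, 6 to 8 high and 2 to 2 not detected, 51 to 52, 12 to 15 and 16 to 16 related genes, and 11 to 12 members with several transcripts. The rules otherwise ask for both libraries. With 1 left out, the counts expressed, high or not detected can only stay equal or rise, so these ranges do not show stability. The library difference and the pairs' spread need both libraries and were not run without one. No paired analysis was possible because there is 1 group. Depth limits Insig1, with 4 counts in all, and Scd1.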
